A study of Mus musculus with 9 samples.

Results

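Cytosolic ribosomal proteins form the protein part of the ribosome, the particle that reads messenger RNA and builds protein. The genes were chosen by name: every protein-coding gene of the deposited table whose symbol is that of a large-subunit (Rpl, Rplp) or small-subunit (Rps, Rpsa) protein, leaving out the ribosomal S6 kinases (Rps6k) and Rps19bp1. The rule gave 89 of the 22831 genes, 53 of the large and 36 of the small subunit. Of these, 77 encode the core proteins of the ribosome and 12 are paralogs, retrogenes or genes whose symbol ends in -ps. The rule itself uses names and no expression value.

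The libraries came from C2C12, a mouse myoblast line of wild-type genotype, that was grown to confluence and held in horse serum until it formed multinucleated myotubes. The 3 groups of 3 libraries were untreated control myotubes, myotubes given 200 µM palmitic acid, and myotubes given 200 µM palmitic acid with 1000 µM carnitine. All groups share the same line and differentiation, and the labels give the treatment time as 48 with an unreadable unit. They state nothing on separate cultures, so the tests measure the spread between these libraries, which may be technical.

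In the ribosome the small subunit decodes the message and the large subunit joins the amino acids. The subunits hold 1 copy of nearly every protein, and their synthesis is coordinated largely through translation: mammalian ribosomal protein messages begin with a pyrimidine tract, the TOP motif, which the mTOR kinase and the RNA-binding protein Larp1 use to switch their translation. RNA counts therefore read the amount of message and not how much of it is translated. In muscle, ribosome number sets much of the capacity for growth.

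Library totals ran from 2309829 to 5135035 counts. The protocol names a stranded kit, yet many counts fell on noncoding genes that lie opposite protein-coding exons. The sense-to-opposite ratio divides the counts of protein-coding genes that face no other gene across the strands, called unopposed here, by those of such noncoding genes. It was 0.685, 0.633 and 1.18 in the control libraries, 3.48, 1.21 and 1.22 with palmitic acid, and 0.831, 0.653 and 0.701 with carnitine added. Palmitic acid library 1 and control library 3 stood apart from their groups, and every palmitic acid library lay above every other library. This ratio moved with the groups beside each result below, and its part in them was not tested. Summed counts of 23 myotube markers ran from 12623 to 16432 CPM, counts per 1000000 of the scaled library, in the control, 17487 to 17709 with palmitic acid and 13703 to 14844 with carnitine, none of the 23 being at 0. The sums of 13 fibroblast and matrix markers, 12271 to 17258, 19070 to 22325 and 15036 to 17446 CPM, and of 14 reserve cell and myoblast markers, 1234 to 1853, 1846 to 2478 and 1216 to 1467 CPM, had their highest values with palmitic acid too, the last overlapping the control, with none at 0. Such sums weigh abundant genes most. Of the 23 myotube markers, 14 stood higher with palmitic acid than in the control and 9 lower, with a median log2 fold change of 0.20. Higher too were 11 of 12 fibroblast and matrix markers tested, 9 of 11 reserve cell and myoblast markers tested, and 4448 of 6098 unopposed genes tested. In such bulk samples, fewer cells of a type and less RNA per cell cannot be told apart.

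Ribosomal protein messages took a larger share of the counts with palmitic acid. The 89 genes held 0.924%, 0.852% and 1.31% of all counts in the control libraries. With palmitic acid they held 2.28%, 1.36% and 1.29%, and with carnitine 1.05%, 0.806% and 0.896%. The highest by far was palmitic acid library 1, while palmitic acid library 3 lay below control library 3, so these groups overlapped. The carnitine libraries lay below every palmitic acid library. For palmitic acid library 1 the 95% Wilson interval was 2.27% to 2.30%, which covers counting error only, as reads without molecular identifiers are not independent molecules.

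Set against unopposed genes, the contrast narrowed. The members of that kind held 3.39%, 3.27% and 3.37% of those genes' counts in the control, 3.93%, 3.49% and 3.30% with palmitic acid and 3.29%, 2.96% and 3.17% with carnitine. Palmitic acid library 3 lay inside the control range on both measures, and the carnitine libraries stayed below the palmitic acid libraries by a narrow margin.

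Large and small subunit messages kept to a near constant proportion. Large-subunit counts exceeded small-subunit counts 1.96, 1.93 and 1.95 times in the control libraries. The ratio was 1.80, 1.97 and 2.00 with palmitic acid and 1.95, 1.99 and 1.95 with carnitine. Palmitic acid library 1 was the lowest and palmitic acid library 3 the highest of the 9, so the palmitic acid group spanned both others.

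**Figure D1:**
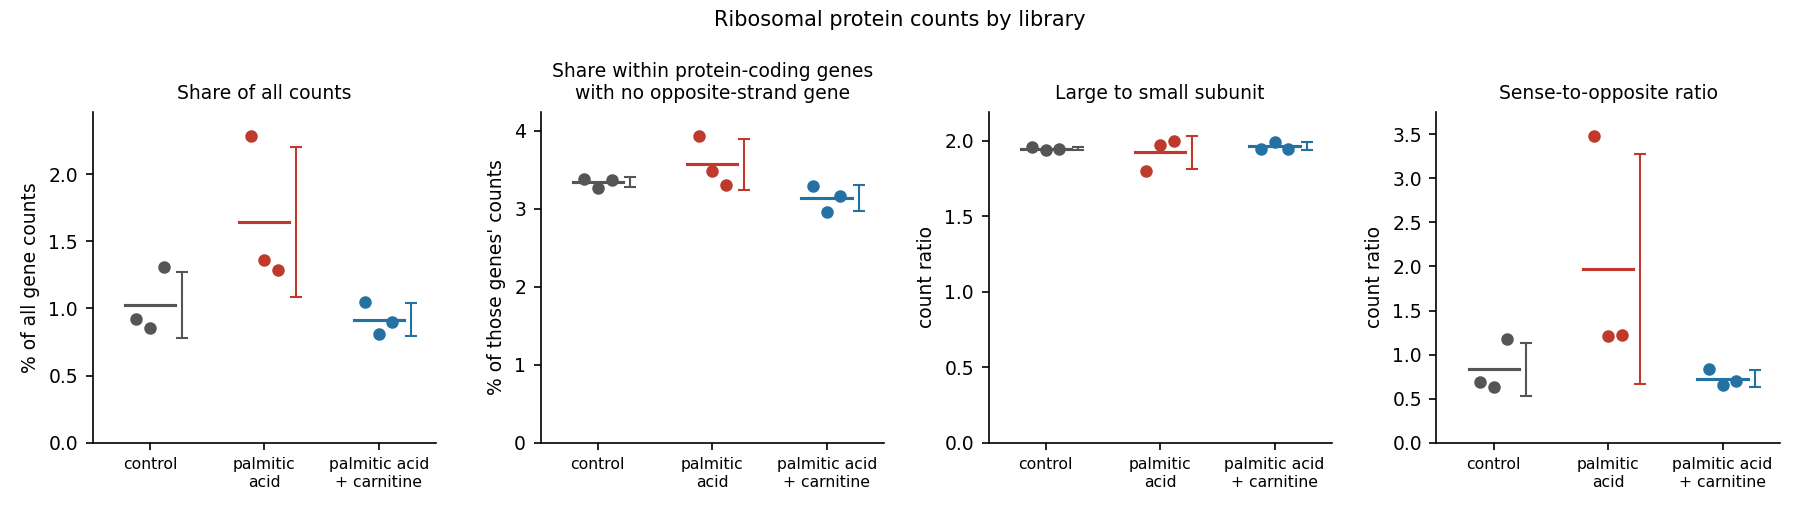
Each point is 1 library, the bar its group mean and the whisker 1 SD on either side (n = 3). The panels plot ribosomal protein counts as a percentage of all counts, the same for unopposed genes as a percentage of those genes' counts, the large to small subunit count ratio, and the sense-to-opposite ratio. Palmitic acid library 1, at 2.28% and a ratio of 3.48, sets itself apart in the first and last panels, and the subunit ratio stays between 1.80 and 2.00.

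The table's lengths allow levels to be compared between genes as FPKM. Among the 76 core members that were tested, the group median was 54.3 FPKM in the control, 88.2 with palmitic acid and 50.8 with carnitine. FPKM divides by each library's own total, without the trimmed-mean (TMM) scaling used for the tests. The large-subunit median was 57.0, 111 and 54.2 FPKM in these groups and the small-subunit median 49.6, 77.6 and 42.1. Rpl36 had the highest mean level over the 9 libraries, 833 FPKM. Rps15, which lies at the decoding site, followed at 514 FPKM, and Rpl41, the shortest ribosomal protein, at 476 FPKM. The core members at the lower end were Rpl13a at 1.67 FPKM, Rps10 at 1.56 FPKM and Rpl21 at 1.23 FPKM.

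These levels should not be read as relative amounts of message without care, since ribosomal proteins have many processed copies: 138 ribosomal protein pseudogenes are listed in the table with counts of their own, and reads from near-identical copies can be split. Rps18-ps6, a member by its protein-coding type, stood at 416 FPKM, against 34.3 FPKM for its parent Rps18. Rps18-ps6 also shares 541 exonic bases with Gm26619 on the other strand, which held 111067 counts against its own 7272. The part of that gene in the level and calls of Rps18-ps6 was not tested. Rpl24, a core protein that links the subunits, had 4, 2 and 1 counts in the control, 0, 3 and 3 with palmitic acid and 1, 0 and 0 with carnitine, and no gene on its opposite strand. A library at 0 allows up to 3 counts.

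**Figure D2:**
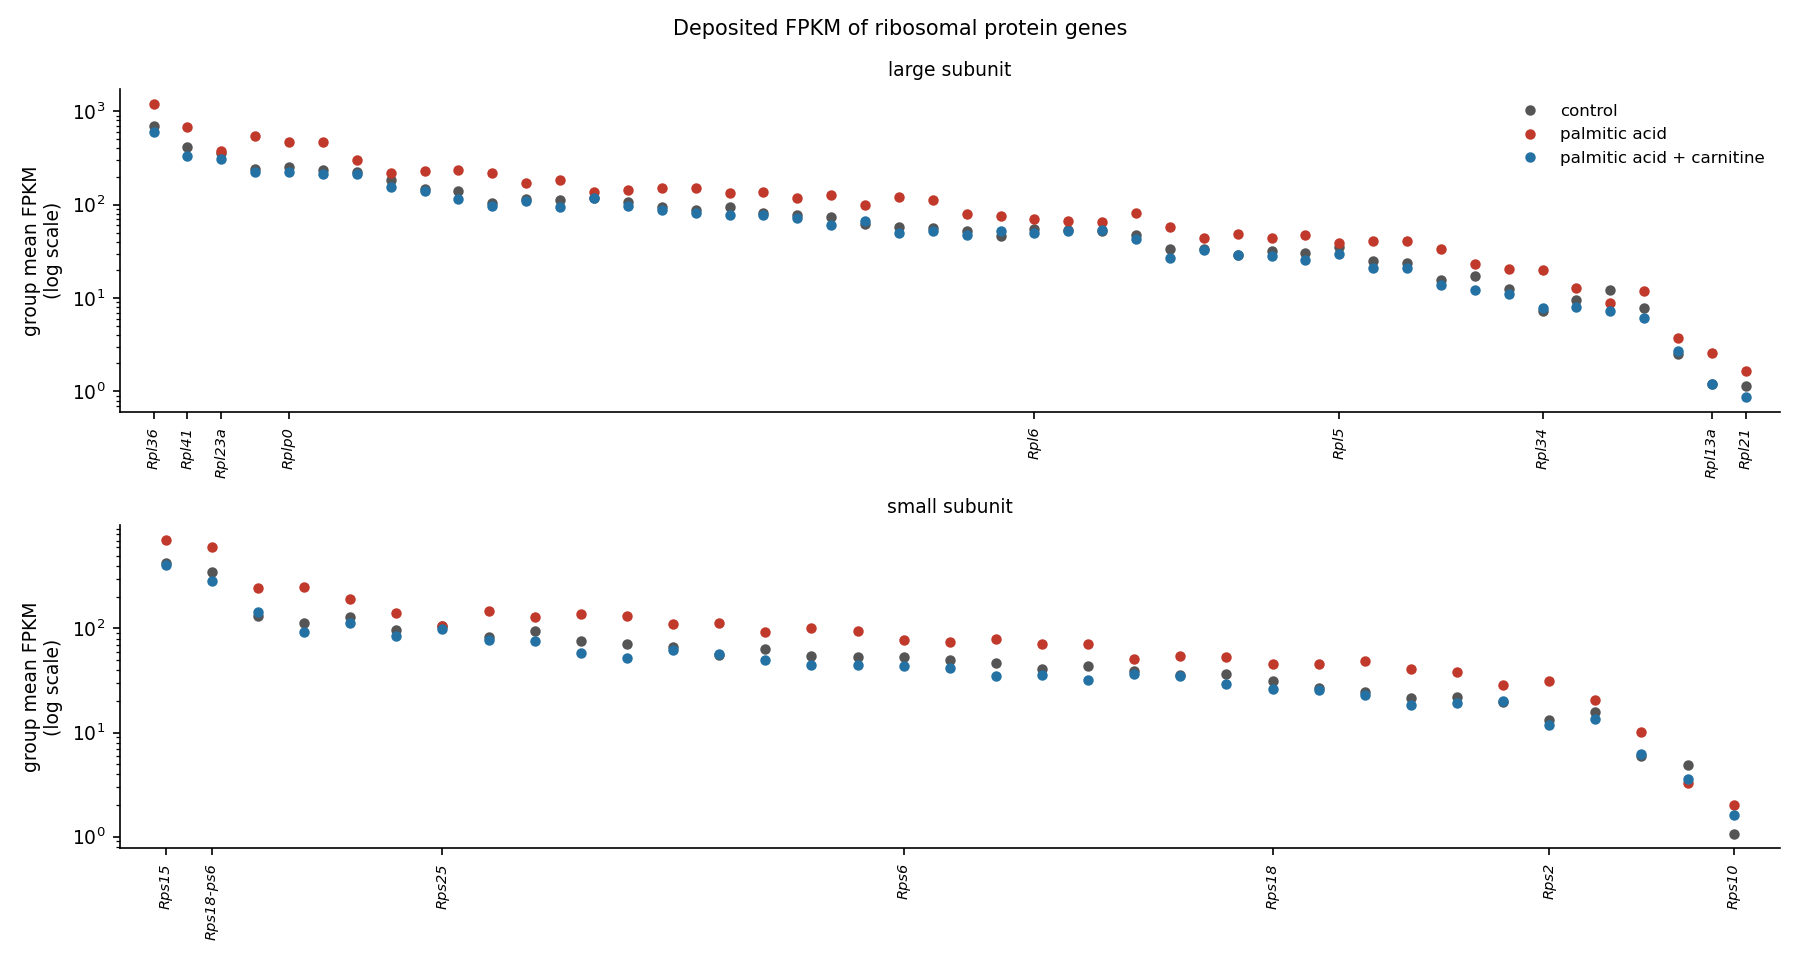
Group mean of the deposited FPKM, on a log axis, for each ribosomal protein gene tested, in order of the mean over all 9 libraries, with 1 point for each group (n = 3) and names under some genes. Rpl36 leads the large and Rps15 the small subunit, and most palmitic acid means lie above both others.

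Of the 89 members, 83 passed the filter on low counts, 48 large and 35 small, among 12548 genes tested. The other 6, Rpl3l, Rpl24, Rpl36al, Rps27rt, Rpl10-ps3 and Rpl36a-ps1, held 4 to 33 counts over all libraries. Rpl3l replaces Rpl3 in the ribosomes of adult striated muscle in mice; it had 3, 0 and 0 counts in the control, 0, 2 and 7 with palmitic acid and 5, 0 and 0 with carnitine. Rps27rt, a retrogene of Rps27, had 0, 2 and 2 counts in the control and 2, 0 and 0 with palmitic acid but 8, 9 and 10 in the carnitine libraries. All 3 carnitine libraries lay above the other 6, at counts too low for the test.

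With palmitic acid, 72 of the 83 members tested had a level above the control, with a median log2 fold change of 0.31. Values above the control were held by 6670 of all 12548 genes tested and 4448 of 6098 unopposed genes. The large-subunit median was 0.29 and the small-subunit median 0.37. No member passed edgeR's quasi-likelihood test at a Benjamini-Hochberg adjusted p under 0.05, and neither did any other gene, a background of 0%; the smallest adjusted p among members was 0.139, for Rpl34. At an unadjusted p under 0.05, 7 members stood higher, of which 6 belong to the large subunit, against a background of 5.67% of all genes tested, and 0 stood lower, against 13.9%. Of the 6098 unopposed genes, 507 stood higher and 140 lower by that measure, and of the 58 unopposed members tested, 6 and 0. All genes tested had a median of 0.06, unopposed genes 0.27 and noncoding genes opposite protein-coding exons -0.80.

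With carnitine added to palmitic acid, 72 of 83 members stood lower than with palmitic acid alone. So did 6977 of all 12548 genes tested and 4679 of 6098 unopposed genes. The members' median log2 fold change was -0.41, with -0.39 for the large and -0.41 for the small subunit. The same edgeR test called no member and no other gene, again a background of 0%, with a smallest adjusted p of 0.125. At an unadjusted p under 0.05, 26 members stood lower, 13 in each subunit, against a background of 8.34%, and 0 stood higher, against 15.9%. Among the 6098 unopposed genes, 764 stood lower and 149 higher by that measure, and among the 58 unopposed members tested, 23 and 0. The medians of all genes and of unopposed genes were -0.10 and -0.34. Both comparisons use the same palmitic acid libraries, so the values are given side by side and neither bears on the other.

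Carnitine with palmitic acid against the control put 67 of 83 members below 0, beside 6545 of all 12548 genes tested and 3442 of 6098 unopposed genes. The members' median log2 fold change was -0.11, with -0.10 and -0.15 for the large and small subunit, beside -0.06 for unopposed genes. With TMM factors taken from unopposed genes, 54 of 83 members were below 0, with a median of -0.06. So were 2979 of 6098 unopposed genes, with a median of 0.01. EdgeR's quasi-likelihood test called no gene, a background of 0%, the smallest adjusted p of a member being 1.00, and 0 members had an unadjusted p under 0.05 in either direction, against 0.877% of all genes as higher and 1.88% as lower. Without control library 3 the members' median was 0.01.

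**Figure D3:**
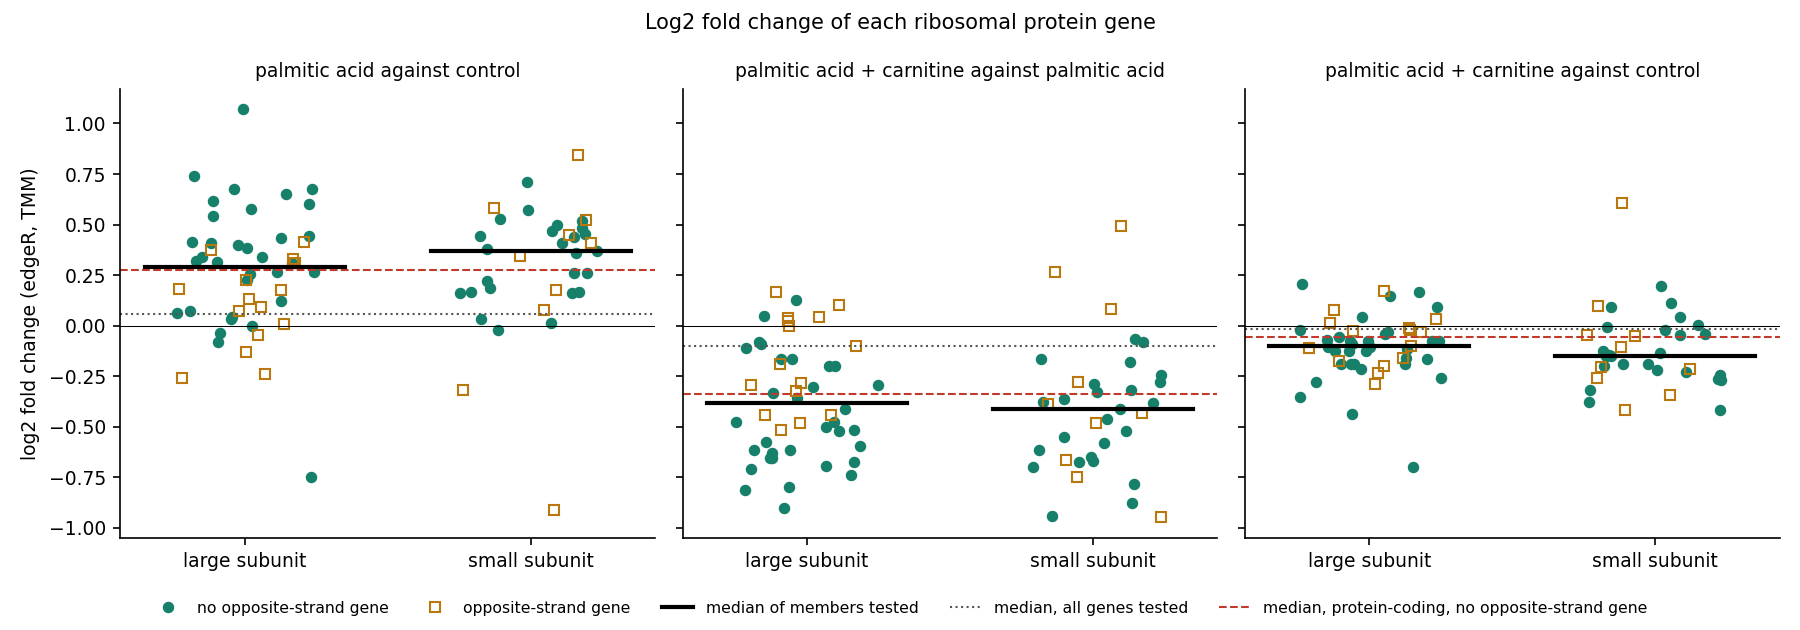
Each point is the log2 fold change of 1 ribosomal protein gene from edgeR with TMM scaling, filled for genes without and open for genes with an opposite-strand gene. Thick lines mark the medians of the members, at 0.29 and 0.37 in the first panel and -0.39 and -0.41 in the second, and thin lines the medians of all genes tested and of unopposed genes.

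The distance of the members from unopposed genes hardly changed with the scaling, while the distance of both from 0 did. The first follows from the scaling itself, which moves every gene by about the same amount. When the TMM factors were taken from unopposed genes, the median over all genes moved from 0.06 to -0.23 for palmitic acid against control and from -0.10 to 0.24 for carnitine against palmitic acid. The members' medians became 0.02 and -0.05, beside -0.01 and 0.01 for unopposed genes, where TMM over all genes had given 0.31 and -0.41 beside 0.27 and -0.34. The change of factors moves every gene by about the same amount, so a log2 fold change smaller than that shift changes sign by construction. On that scale the large and small subunit medians were -0.01 and 0.08 against the control. Above it stood 45 of 83 members and 2999 of 6098 unopposed genes. For carnitine against palmitic acid the medians were -0.03 and -0.07, with 47 of 83 members and 2990 of 6098 unopposed genes lower. With TMM over all genes, the gap between members and unopposed genes depended on single libraries. Without palmitic acid library 1 their medians were 0.177 and 0.205 against the control, and -0.2706 and -0.2713 for carnitine against palmitic acid. Leaving out any other single library kept the members' median further from 0 in both comparisons. Against the control the gap was then narrow without control library 3, at 0.422 and 0.416, and without palmitic acid library 2, at 0.310 and 0.301.

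Groups whose 3 libraries do not overlap give a second view. On the TMM scale, 22 of 83 members lay wholly above the control with palmitic acid, against a background of 11.7% of all genes, and 3 lay wholly below, against 10.9%. Restricted to unopposed genes, 19 of 58 members lay above, against a background of 16.7%. On the scale set by those genes, 8 of 58 did so, against 7.58%. For carnitine against palmitic acid, 35 of 83 members lay wholly below, against 18.3%, and among unopposed genes 30 of 58, against 25.9%. After rescaling, 12 of 58 did, against 8.28%. Members wholly above palmitic acid with carnitine numbered 0 of 83 on the TMM scale, against 20.0%, and 4 of 58 unopposed members after rescaling, against 10.0%. Against the control, 5 of 83 carnitine values lay wholly below, with Rpl27a, Rpl5 and Rps12 among them, against 4.84%, a share near the background. Palmitic acid library 1 held the highest value of 57 of the 83 members, compared with 21.3% of all genes and 30.8% of those with no opposite-strand gene, and of 30 after rescaling, compared with 7.01% and 10.6%.

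**Figure D4:**
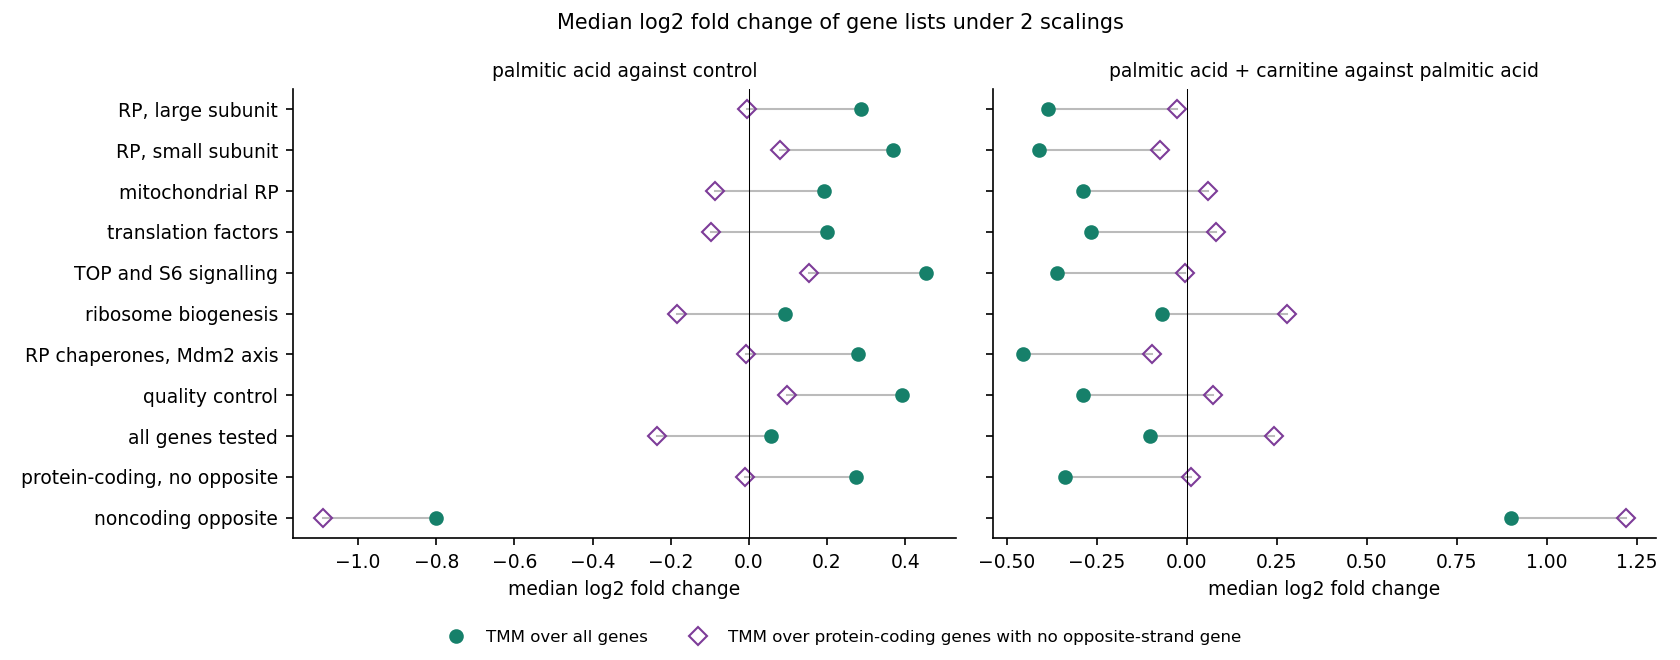
Median log2 fold change of each gene list under TMM factors from all genes (filled circles) and from unopposed genes (open diamonds). The large and small subunit medians of 0.29 and 0.37 move to -0.01 and 0.08 in the first panel, and those of -0.39 and -0.41 move to -0.03 and -0.07 in the second.

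The P-stalk is the flexible arm of the large subunit on which elongation factors dock; it is built from Rplp0 with pairs of Rplp1 and Rplp2. Rplp0 had 364, 369.9 and 587 CPM in the control libraries, 720.1, 595 and 611 with palmitic acid and 475, 369 and 377 with carnitine. Rplp1 had 109.5, 105 and 169, 299, 192 and 149.6 and 160.2, 83.1 and 122 CPM in the same order, and Rplp2 had 114, 97.7 and 162, 266, 163 and 168 and 139, 86.4 and 118 CPM. All palmitic acid values of Rplp0 and Rplp2 lay above both other groups, while Rplp1 in palmitic acid library 3 lay within the range of both other groups. The log2 fold changes against the control were 0.54 ± 0.28, 0.74 ± 0.33 and 0.67 ± 0.30 (SE), with adjusted p of 0.289, 0.242 and 0.239 by edgeR's quasi-likelihood test. With carnitine against palmitic acid they were -0.66 ± 0.28, -0.81 ± 0.33 and -0.80 ± 0.30, with adjusted p of 0.179, 0.171 and 0.153. On the rescaled values they were 0.27, 0.45 and 0.39 against the control. Each was larger than the shift of the scaling, so the sign held by construction.

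Rpl34, a large-subunit protein, had the highest log2 fold change of all members. Its values were 22.1, 16.3 and 23.6 CPM in the control, 49.3, 40.4 and 40.7 with palmitic acid and 22.8, 19.8 and 27.2 with carnitine. The palmitic acid libraries stood apart from the other 6 on both sides of the comparison, and library 1 was only modestly above the other two. The log2 fold change was 1.07 ± 0.26 (SE) against the control, with an edgeR adjusted p of 0.139, and -0.90 ± 0.25 with carnitine against palmitic acid, with 0.125. On the rescaled values these were 0.78 and -0.55. DESeq2 called it in both comparisons, at adjusted p of 0.0159 and 0.0337, where it called 0.351% of all genes as higher in the first and 1.00% as lower in the second. By DESeq2 it was the sole member called against the control, and 1 of 5 with carnitine, with Rpl27a, Rpl11 and Rps18-ps6 among the others. EdgeR also called Rpl34 against the control without a low-count filter, at a background of 0.302%, and without control library 3, at 1.35%.

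**Figure D5:**
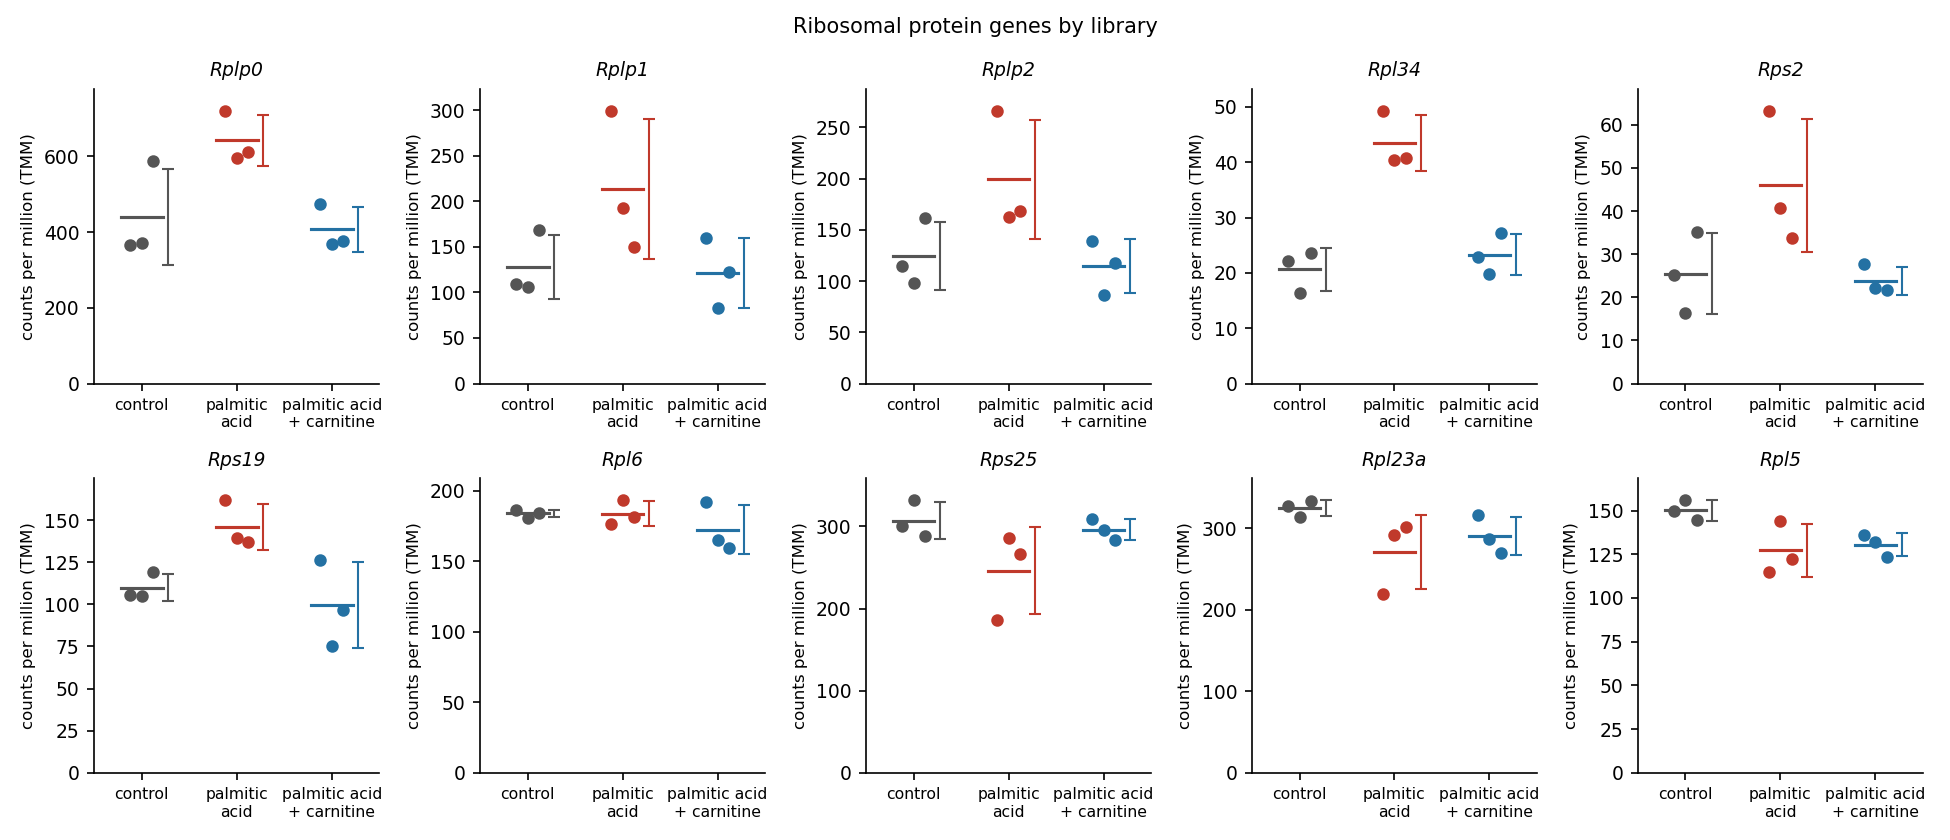
CPM with TMM scaling for 10 ribosomal protein genes, 1 point for each library, with the group mean as a bar and 1 SD as a whisker (n = 3). The P-stalk genes, Rpl34, Rps2 and Rps19 have their highest values with palmitic acid, Rpl6 is level, and Rps25, Rpl23a and Rpl5 have their lowest value in palmitic acid library 1.

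Rpl5 and Rpl11 assemble with the small 5S ribosomal RNA into a particle that enters the large subunit and, when unassembled, binds and inhibits Mdm2, which restrains p53. Rpl5 had 149.8, 156 and 144 CPM in the control, 115, 144 and 122 with palmitic acid and 136, 132 and 124 with carnitine. Rpl11 had 79.1, 96.9 and 111, 139, 129 and 119 and 75.9, 78.4 and 85.3 CPM. The partners ran in opposite directions: the palmitic acid values of Rpl5 lay just below the control without overlap, and those of Rpl11 lay above it. The log2 fold changes were -0.24 ± 0.22 and 0.43 ± 0.23 (SE), with adjusted p of 0.553 and 0.305 by edgeR's quasi-likelihood test. Rpl5 shares 953 exonic bases with Fam69a on the other strand, which held 6039 counts against 3974 for Rpl5 itself and had a log2 fold change of -1.86 against the control. Rpl11 has no opposite-strand gene. Rpl23, another large-subunit protein that binds Mdm2, had 102, 81.4 and 84.1, 111, 119 and 103 and 122, 90.2 and 96.4 CPM, with all palmitic acid values above the control by a small margin.

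Among other large-subunit proteins, Rpl3, which reaches toward the peptidyl transferase centre, had a log2 fold change of 0.37 ± 0.26 (SE) with palmitic acid, and Rpl10, which joins the subunit last and completes that centre, 0.44 ± 0.27. Rpl10a, bound at the L1 stalk where spent transfer RNA leaves, had 213, 187 and 273 CPM in the control, 324, 288 and 285 with palmitic acid and 246, 197 and 217 with carnitine. Its palmitic acid values lay above every other library, with 0.41 ± 0.25 against the control and -0.44 ± 0.25 for carnitine against palmitic acid. Rpl13a, which in human cells also serves in a complex that silences inflammatory messages, had 0.67 ± 0.62 with an SE nearly as large as the value, on fewer than 6 CPM in every library. Rpl38, needed for translation of Hox messages in mouse embryos, had 0.34 ± 0.29. Rpl39, at the exit tunnel, had 0.07 ± 0.26, Rpl36a 0.22 ± 0.28 and Rpl41 0.34 ± 0.27, and their groups overlapped. None of these passed edgeR's test.

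The highest small-subunit log2 fold changes with palmitic acid belonged to Rps2 and Rps29. Rps2, at the channel where the message enters, had 25.1, 16.3 and 35.2 CPM in the control, 63.2, 40.7 and 33.8 with palmitic acid and 27.6, 22.2 and 21.7 with carnitine. Rps29, a zinc-binding protein of the small-subunit head, had 72.2, 75.01 and 103, 209, 108 and 92.0 and 95.6, 55.7 and 61.6 CPM. Palmitic acid library 1 was the highest in both, and palmitic acid library 3 lay within the control range. Their log2 fold changes were 0.84 ± 0.32 and 0.71 ± 0.34 (SE) against the control and -0.95 ± 0.32 and -0.94 ± 0.34 for carnitine against palmitic acid. EdgeR called both as lower in the second comparison only without a low-count filter, at a background of 0.648%.

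Rps6, the ribosomal substrate of the S6 kinases downstream of mTOR, had 98.2, 80.6 and 94.8 CPM in the control, 102, 104 and 100.3 with palmitic acid and 84.9, 50.1 and 95.5 with carnitine. The palmitic acid values of Rps6 cleared the control by a narrow margin, at a log2 fold change of 0.17 ± 0.26 (SE), or -0.13 on the rescaled values, a difference no larger than the shift of all genes.

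Several small-subunit genes are known from human anaemias with ribosomal protein loss. Rps19 had 106, 105 and 119 CPM in the control, 162, 139 and 137 with palmitic acid and 126, 75.6 and 96.4 with carnitine, with every palmitic acid value above the others. Rps26 had 0.22 ± 0.30 (SE) on the log2 scale against the control, Rps14 0.41 ± 0.26 and Rps28 0.58 ± 0.27. Rpsa, which is also known as a laminin receptor precursor, had 166, 154 and 215, 281, 222 and 229.5 and 189, 133 and 144 CPM, and its palmitic acid values likewise exceeded all others. Its log2 fold change was 0.45 ± 0.26, and -0.65 ± 0.26 for carnitine against palmitic acid. Rps3 had 0.52 ± 0.28, Rps4x 0.48 ± 0.27, Rps15 0.37 ± 0.25 and Rps27 0.03 ± 0.25. Rps27a, made as a fusion with ubiquitin, had 0.17 ± 0.25. None of these passed edgeR's test.

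Just 3 members lay wholly below the control with palmitic acid, and each has a gene on its opposite strand. Rps25, which is used by some viral internal entry sites, had 301, 332 and 288 CPM in the control, 186, 285 and 267 with palmitic acid and 309, 295 and 284 with carnitine. Rpl23a, a docking site at the tunnel exit, had 327, 314 and 333, 219, 292 and 301 and 316, 287 and 269 CPM. Both were lowest in palmitic acid library 1, with the other two just under the control. The log2 fold changes were -0.32 ± 0.25 and -0.26 ± 0.24 (SE), with adjusted p of 0.472 and 0.547 by edgeR's quasi-likelihood test. Over all 26 members with an opposite-strand gene, 25 were tested and had a median of 0.18 against the control and -0.28 for carnitine against palmitic acid, whereas the 58 tested without one had 0.35 and -0.48.

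The opposite-strand partner carried more counts than the ribosomal protein gene in 8 of the 21 members with an exonic overlap in the table. Rpl23a had 8516 counts over all libraries and Tlcd1, which overlaps 506 of its exonic bases, 73867. Rpl35 had 4446 and Wdr38 52626, with log2 fold changes with palmitic acid of -0.13 ± 0.24 (SE) for Rpl35 and -1.19 for Wdr38. Rpl30 had 2754 and D730044K07Rik 43192. In each of these pairs the partner had a lower value with palmitic acid than in the control, while Rpl30 had a higher one, 0.31 ± 0.27. Reads of a gene and its antisense partner cannot be told apart here, since how strand entered the counting is not given in the sources used here.

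The paralogs and copies showed the widest scatter. Rpl22l1, the paralog of Rpl22, had 5.40, 5.57 and 5.19 CPM in the control, 8.90, 4.98 and 3.44 with palmitic acid and 3.45, 9.44 and 5.52 with carnitine, and Rpl22 itself 59.4, 44.2 and 57.3, 58.8, 42.6 and 63.9 and 38.0, 36.4 and 44.6. Neither separated palmitic acid from control. Rps27l, a p53-responsive paralog of Rps27, had -0.02 ± 0.37 (SE). Rps23rg1, a retrogene of Rps23, had the lowest log2 fold change of all members, -0.91 ± 0.50, and Rpl9-ps6 the next, -0.75 ± 0.66. The control libraries alone held 25.1, 14.6 and 5.76 CPM of the first and 2.95, 15.4 and 9.80 CPM of the second, a spread that overlapped the palmitic acid values. By contrast Rpl6, a core protein, was level: it had 186, 181 and 184 CPM in the control, 177, 193 and 181 with palmitic acid and 192, 165 and 159.6 with carnitine.

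Sequences at the start sites are shown because ribosomal protein messages are known for a pyrimidine tract at their first bases. RefSeq (GRCm38.p6) held 76 promoter entries for 64 of the 89 members. A run of at least 8 letters C or T, on the gene's strand and touching the 5 bases on either side of the annotated start, was found in 32.9% of member promoters against 9.78% of all 21263 protein-coding promoters, and a run of at least 5 in 38 of the 76 member entries against 32.7% of all. The windows below run from 10 bases before the start through the first 20 bases from it, with the run in capitals. Rpl35 carries a run of 18, Rplp2 and Rps6 of 10 and Rps27 of 9, while the entries of Rplp0 and Rps25 have 4 letters each. The starts are the annotated ones and a run may lie before them, so a short run does not show that a message lacks the tract. Run length was not tested against the fold changes.
Rpl35 (chr2:39005112-39005141, minus strand): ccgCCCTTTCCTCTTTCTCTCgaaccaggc
Rplp2 (chr7:141447641-141447670, plus strand): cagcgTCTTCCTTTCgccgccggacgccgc
Rps6 (chr4:86857348-86857377, minus strand): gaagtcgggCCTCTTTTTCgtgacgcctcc
Rps27 (chr3:90213629-90213658, minus strand): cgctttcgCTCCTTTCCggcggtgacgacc
Rpl34 (chr3:130730379-130730408, minus strand): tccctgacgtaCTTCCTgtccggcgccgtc
Rplp0 (chr5:115559457-115559486, plus strand): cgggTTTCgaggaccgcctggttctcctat
Rps25 (chr9:44407704-44407733, plus strand): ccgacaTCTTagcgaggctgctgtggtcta
The Rpl34 window is the upstream of its 2 annotated starts, with a run of 6, and the other start has a run of 20.

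Over the whole 300-base promoters, searched on both strands, CCGGAAG, a core of the sites of ETS-family factors, occurred in 34.2% of member entries and 11.6% of all. AAGATGG, a core of the YY1 site, occurred in 15.8% and 6.24%. GGGCGG, the GC box, occurred in 59.2% and 46.2%, and TATAAA, the TATA box, in 9.21% and 12.6%. These are matches of letters and do not show binding, and matches of different motifs may overlap.

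Translation factors work on the ribosome and many share the TOP motif. The 34 translation factors tested, of 36 listed, had medians of 0.20 with palmitic acid against control and -0.27 for carnitine against palmitic acid, with no gene called, and -0.10 and 0.08 after rescaling. Rack1, the scaffold protein bound to the small subunit, had 0.62 ± 0.28 and -0.86 ± 0.28 (SE), and Eef2, the factor that moves the ribosome along the message, 0.50 ± 0.28 and -0.55 ± 0.28. Fau, which encodes a ribosomal protein fused to a protein like ubiquitin, had 0.37 ± 0.24 against the control. Of the 19 genes of mTOR, TOP and S6 signalling tested, 15 stood higher with palmitic acid, beside 4448 of 6098 unopposed genes, and 4 lower. After rescaling 14 stood higher, beside 2999 of 6098. Their median was 0.45, or 0.15 after rescaling, beside 0.27 and -0.01 for unopposed genes. Tsc2, which has an opposite-strand gene, was among the lower, at -0.94 ± 0.38 (SE). Mtor itself had 18.7, 17.1 and 28.2 CPM in the control, 43.7, 52.1 and 43.8 with palmitic acid and 28.3, 19.4 and 31.0 with carnitine. The palmitic acid values of Mtor lay above all others, at 1.11 ± 0.28 against the control with an edgeR adjusted p of 0.139, or 0.85 after rescaling.

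Ribosome biogenesis genes make ribosomal RNA and assemble the subunits. The 74 genes tested, of 77 listed, had a median of 0.09 with palmitic acid and -0.07 for carnitine against palmitic acid, and -0.18 and 0.28 after rescaling. Npm1, a nucleolar chaperone, had -0.62 ± 0.25 and 0.22 ± 0.25 (SE), and Fbl, the methylase of ribosomal RNA, -0.31 ± 0.25 and 0.05 ± 0.25. Heatr1 and Tsr1, which process the small-subunit precursor, had -1.46 ± 0.49 and -1.24 ± 0.43 against the control, and both have an opposite-strand gene. The 73 mitochondrial ribosomal proteins tested, the counterparts in the organelle, had medians of 0.19 and -0.29, or -0.09 and 0.06 after rescaling. The 13 dedicated chaperones and genes of the Mdm2 axis had 0.28 and -0.46, or -0.01 and -0.10 after rescaling, and the 17 genes of ribosome quality control 0.39 and -0.29, or 0.10 and 0.07. EdgeR's quasi-likelihood test called no gene of these lists.

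Leaving out the libraries that stood apart, control library 3 and palmitic acid library 1, changed the number of calls. EdgeR then called 13 of the 83 members it tested as higher with palmitic acid than in the control, against a background of 6.18%. Among them were Rplp0, Rplp1, Rplp2, Rpl8, Rpl10, Rpl10a, Rpl13, Rpl34, Rpl41, Rps23, Rpsa and Rps18-ps6, which covers the whole P-stalk. For carnitine against palmitic acid it called 13 as lower, against 2.62%, and Rps27rt as higher, against 11.0%. Rps27rt was too low for the main fit and passed the filter here only through the carnitine libraries, where it was high. Its call therefore adds no support. The calls of this fit rest on 2 control and 2 palmitic acid libraries. Their backgrounds are shares of all genes, and the share among unopposed genes is not given here. The members' median in this fit was 0.288 against the control, below 0.342 for unopposed genes. For carnitine against palmitic acid these medians were -0.2692 and -0.2703. In a separate fit of all 9 libraries restricted to unopposed genes, edgeR called 0 of 58 members in each comparison, against 1.07% of those genes for palmitic acid against control, 1.26% for carnitine against palmitic acid and 0% for carnitine against the control.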

How the data were processed

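Stranded mRNA libraries of C2C12 myotubes were grouped by the treatment label, with 3 libraries in each of 3 groups. The authors deposited whole-number counts for 22831 genes and FPKM values beside them, per the file headers. The deposited FPKM equalled the count divided by the library total and 1 length for each gene, within 1%. Tools listed in the submitters' processing notes are HTSeq 0.13.5 and edgeR, HISAT2 2.2.0 and Bowtie2 2.4.2, and Trim Galore 0.6.4, with GRCm39 among the builds. How strand entered the counting is not given in the sources used here.

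Counts were tested with edgeR 4.0.16 in R 4.3.3 (TMM factors, filterByExpr with a minimum count of 10 and total of 15, glmQLFit and glmQLFTest, two-sided) in 1 fit of all 9 libraries. P-values were adjusted by Benjamini-Hochberg over the 12548 genes tested, at a threshold of 0.05. CPM values use TMM factors. Opposite-strand genes came from GENCODE M21 (GRCm38), joined by gene ID for 22506 genes and used for strand relations only. A gene had an opposite-strand gene where its exons met any gene on the other strand. Noncoding genes in the sense-to-opposite ratio shared at least 100 exonic bases with a protein-coding gene.

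Alternatives were DESeq2 1.42.0 (its size factors and its Wald test), limma 3.58.1 on log2 of FPKM plus 1 or 0.1, no filter, only the groups compared, a replicate block, other scalings and left-out libraries. The edgeR step was tested on simulated counts.

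The members and lists were chosen with earlier results of these data known. Genes named were a set list of members, and for each comparison and subunit the 3 highest and 3 lowest log2 fold changes, every member called, and every member with groups apart and a log2 fold change of at least 1 in size; other lists gave up to 3 genes with the smallest p. Rpl6, Rpl8, Rpl13, Rpl24, Rpl27a, Rpl30, Rpl36, Rps18, Rps18-ps6, Rps27rt, Fau, Npm1 and Fbl, and those partners on the other strand, were named after their values were seen. Some genes that the rule or a count would name are not reported here; they stay in the fits and counts.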

Additional observations from a re-analysis of the deposited data

How the results depend on the processing

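The direction of the member medians with palmitic acid, and with carnitine against palmitic acid, was the same under all alternatives run, but their size was not. For palmitic acid against control the median of 0.31 became 0.64 with limma on log2(FPKM + 1) and 0.67 with a pseudocount of 0.1. It became 0.058 in a fit of unopposed genes, 0.033 with the sense-to-opposite ratio as a covariate and 0.018 with TMM factors from those genes. For carnitine against palmitic acid the median of -0.41 became -0.77, -0.79, -0.13, -0.11 and -0.046 in the same order. With the covariate, unopposed genes had medians of 0.086 against the control and -0.111 for carnitine against palmitic acid. The FPKM carry no TMM scaling, and the cause of the other shifts was not tested.

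The count of members called was 0 in each comparison. For palmitic acid against control it was 1 with DESeq2, 1 without a filter and 13 without control library 3 and palmitic acid library 1 together. For carnitine against palmitic acid it was 5, 2 and 14, the last including the call of Rps27rt described above. Leaving out each library in turn gave 0 to 1, 0 to 0 and 0 to 0 calls for palmitic acid against control, carnitine against palmitic acid and carnitine against control. The medians ranged from 0.18 to 0.42, -0.48 to -0.27 and -0.18 to 0.01, the last changing sign without control library 3. Large minus small medians ranged from -0.12 to -0.05, -0.01 to 0.05 and 0.01 to 0.07. The pooled within-group SD of this difference between libraries was 0.21. With the sense-to-opposite ratio as a covariate it changed sign for palmitic acid against control, from -0.08 to 0.04. For carnitine against palmitic acid it went from 0.03 to -0.03 with the covariate and to -0.08 in the fit of unopposed genes.

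Libraries with the same replicate number correlated between -0.39 and 0.26 in their deviations from group means. Libraries with different numbers were not compared, so these values cannot decide whether the numbers pair the libraries. The labels state no pairing. With a replicate block the medians were 0.31, -0.39 and -0.12 and 0 members were called. Over the alternatives for the 44 named members tested, 12 values for palmitic acid against control and 12 for carnitine against palmitic acid were called, each in the direction of the main value, and 78 of 863 and 68 of 862 values changed sign. For carnitine against control 0 were called and 59 of 861 changed sign. For Rpl13a, Rpl21, Rpl22l1 and Rps10, all under 10 CPM, standard errors exceeded 0.5 on the log2 scale.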
